A study of Mus musculus with 24 samples.

Results

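The factors that carry ribosomes through protein synthesis were followed, for 10 of their genes, in the livers of mice fed a methionine-restricted diet, with and without hepatic Nfe2l2. The 10 genes, Eef1a1, Eef1b2, Eef1d, Eef1g, Eef2, Eif3e, Eif3f, Eif3h, Eif4b and Pabpc1, were chosen by name as translation factors whose mRNAs are known to begin with a terminal oligopyrimidine (TOP) tract. Earlier results of these data were known when they were chosen. All 10 were found among the 15160 genes counted and among the 13336 genes tested. Liver RNA came from 24 male mice, 6 in each of 4 groups, aged 5 months according to the labels. WT mice were floxed littermates (labelled NRF2fl/fl), and NRF2 KO mice (NRF2fl/(alb)) carried the same floxed alleles together with Cre recombinase under the albumin promoter, which acts in hepatocytes and leaves the gene in the other cells of the liver. From 8 weeks of age each mouse was fed a control diet with 0.86% methionine (Con) or a methionine-restricted diet with 0.17% methionine (MR), neither containing cysteine. The labels give 8 weeks in total on the diets, and livers were taken after a 4 h fast, once a further period of calorimetry and recovery had passed. The study set aside WT_CON_7604 and WT_MR_7612 as outliers, and the values here are those of the remaining 22 mice, 5 in each WT group and 6 in each NRF2 KO group, unless all 24 are named.

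A TOP mRNA begins at its cap with a C that is followed by an unbroken run of pyrimidines. The class holds nearly all cytosolic ribosomal protein mRNAs and many mRNAs of translation factors. Its translation is known to depend on mTORC1, a kinase complex that responds to amino acid supply, and the RNA-binding protein LARP1 binds the TOP cap and is known both to hold these mRNAs back from translation and to keep them stable. The 10 factors act at successive steps. Eif3e, Eif3f and Eif3h encode subunits of eIF3, the large scaffold that gathers the initiation machinery on the small ribosomal subunit, and Eif4b encodes a factor that stimulates the RNA helicase eIF4A. Pabpc1 encodes the main cytoplasmic poly(A)-binding protein, which connects the mRNA tail to the cap complex. Eef1a1 encodes the factor that brings aminoacyl-tRNA to the ribosome, and Eef1b2, Eef1d and Eef1g encode the subunits of the exchange complex that reloads it with GTP. Eef2 encodes the translocase that moves the ribosome along by a codon. The libraries measured mRNA abundance only, and no measure of translation was analysed here.

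A pyrimidine run that begins with C is shown for the 4 members in which it was found near the annotated start. Whether it is the tract at the cap was not determined. RefSeq promoter sequences of GRCm38.p6, from 250 bases before to 50 after the annotated first base, were matched by symbol for 5 of the 10 members (Eef1a1, Eef1b2, Eef2, Eif3f and Eif4b) and not for Eef1d, Eef1g, Eif3e, Eif3h and Pabpc1. On the transcribed strand, a C followed by at least 4 further C or T bases, beginning within 25 bases of the annotated first base, was found in Eef1a1, Eef2, Eif3f and Eif4b and was not found in Eef1b2. Each sequence below is 30 bases long, runs 5′ to 3′ on the transcribed strand and has the pyrimidine run in capitals.
Eef1a1, chr9:78481710-78481739, minus strand: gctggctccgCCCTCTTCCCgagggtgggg
Eef2, chr10:81176636-81176665, plus strand: cgtcagcggtCTCTTCCgccgcagccgccg
Eif3f, chr7:108934401-108934430, plus strand: ctgttctaggCTCTCTCTCTTTCTCggcaa
Eif4b, chr15:102073773-102073802, plus strand: cgccgcgccaCCCCCTCgcgctgctttacg

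Counting the annotated first base as 1 and the base before it as -1, the run began at -5 in Eef1a1, -4 in Eif3f, 11 in Eif4b and 16 in Eef2. It was 15 bases long in Eif3f, 10 in Eef1a1 and 7 in Eef2 and Eif4b. In Eif3f the run spans the annotated first base, and that base is itself a C with at least 4 pyrimidines after it, as held for 1 of the 5 members, 20.6% of 68 promoters of cytosolic ribosomal protein genes and 2.51% of all 32851 promoters. A run of 5 or more starting within 25 bases was present in 80.9% of the ribosomal protein promoters and in 54.8% of all promoters, so that its presence in 4 of 5 members alone does not set them apart. With at least 7 bases asked of the run the shares were 4 of 5 members, 60.3% and 24.1%. The letters TATAA, searched on both strands of the whole window, were found on the transcribed strand of Eef1a1, Eef2 and Eif3f, and in 24.9% of all promoters on either strand. They began at 26 in Eef1a1, -15 in Eef2 and -61 in Eif3f. In Eef1a1 they thus came after the printed run, and before it in Eef2 and Eif3f. Whether the printed run of Eef1a1 is part of its mRNA in liver was not tested. These matches describe the annotated window, and the counts, which come from the other end of the mRNA, do not show which start the liver used.

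In GENCODE M21 on GRCm38, 5 of the 10 genes lie on chromosome 15: Eef1d at chr15:75894205-75909556, Eif3e at chr15:43250058-43282719, Eif3h at chr15:51786558-51865523, Eif4b at chr15:102073773-102097173 and Pabpc1 at chr15:36595661-36609668. The others are Eef1a1 at chr9:78478449-78489151, Eef1b2 at chr1:63176825-63180486, Eef1g at chr19:8967041-8978479, Eef2 at chr10:81176631-81182498 and Eif3f at chr7:108934417-108942951. The libraries were QuantSeq libraries, in which reads come from the 3′ end of each transcript, so a count stands for that end and not for the whole gene. The last 300 bases of Eef1a1 transcripts matched 14 other genes at 95% identity or more over at least 75 bases, 11 of them pseudogenes. Of the 14, 3 had counts, together 11.5% as many as Eef1a1, so its own count is uncertain by the way such reads were shared out. Those with counts were the miRNA entries Mir703 (27820 over the 24 mice) and Gm26384 (3457) and the pseudogene Gm6548 (509). Eef1d overlaps Naprt on the same strand, and Naprt had 20797 counts over the 24 mice against 36315 for Eef1d, so reads of the pair may not be fully separated. Eef1d also matched 1 pseudogene with 87 counts, and the pseudogene that matched Eef1b2 held 0.219% as many counts as Eef1b2. Eif3e and Eif3h each matched 1 pseudogene that has no row of counts, and the other 5 members matched no other gene.

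The libraries of the 22 mice held 6197291 to 22068338 counts, and by group the median was 14860992 (Con) and 11538109 (MR) for WT mice against 15514868 (Con) and 16173154 (MR) for NRF2 KO mice. Summed over 8 hepatocyte markers, all of them tested, the libraries held 73856 to 128752 CPM, the count of a gene relative to the scaled size of its library. The bounds of the part of exon 5 that Cre removes are not given in the sources used here, so whether the 3′ reads of Nfe2l2 can check the deletion was not determined. The study checked the deletion by qPCR with primers for excised sequence in exon 5, and reported less Nfe2l2 mRNA in NRF2 KO than in WT livers. The 3′ reads were higher in NRF2 KO mice (202 to 339 CPM, n = 12) than in 9 of the 10 WT mice (94.0 to 125 CPM), while the library labelled WT_CON_7607 had 324 CPM, within the range of the NRF2 KO mice. For the 10 members, counts of calls that rest on the WT Con group are therefore also given without WT_CON_7607. The other lists were counted with that library, and only the ranges given for ribosomal proteins include fits without it.

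The 10 mRNAs differed widely in level. Levels are CPM after TMM scaling, and because a 3′ library gives a count per transcript end and not per base, they were compared between genes without a length correction. In WT Con mice (n = 5) Eef2 stood highest at 707 ± 41.4 CPM (SD), followed by Eef1a1 at 653 ± 54.1 CPM, Pabpc1 at 448 ± 46.5 CPM and Eef1b2 at 283 ± 29.8 CPM. The other 6 lay between 108 ± 6.90 CPM for Eif3h and 64.4 ± 5.63 CPM for Eif3f. Eef2 and Eef1a1 overlapped between mice, and so did each neighbouring pair from Eif3h downward (Eif3h, Eif3e, Eef1d, Eif4b, Eef1g, Eif3f). The gaps from Eef1a1 to Pabpc1, from Pabpc1 to Eef1b2 and from Eef1b2 to Eif3h were wider than the spread between mice. Within the exchange complex, Eef1b2 was thus counted well above its partners Eef1d and Eef1g (80.3 ± 10.2 CPM and 66.4 ± 5.69 CPM). By mean CPM over the 22 mice Eef2 ranked 121 and Eef1a1 ranked 131 among the 13336 genes tested, and the lowest member, Eif3f, ranked 1834.

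**Figure D1:**
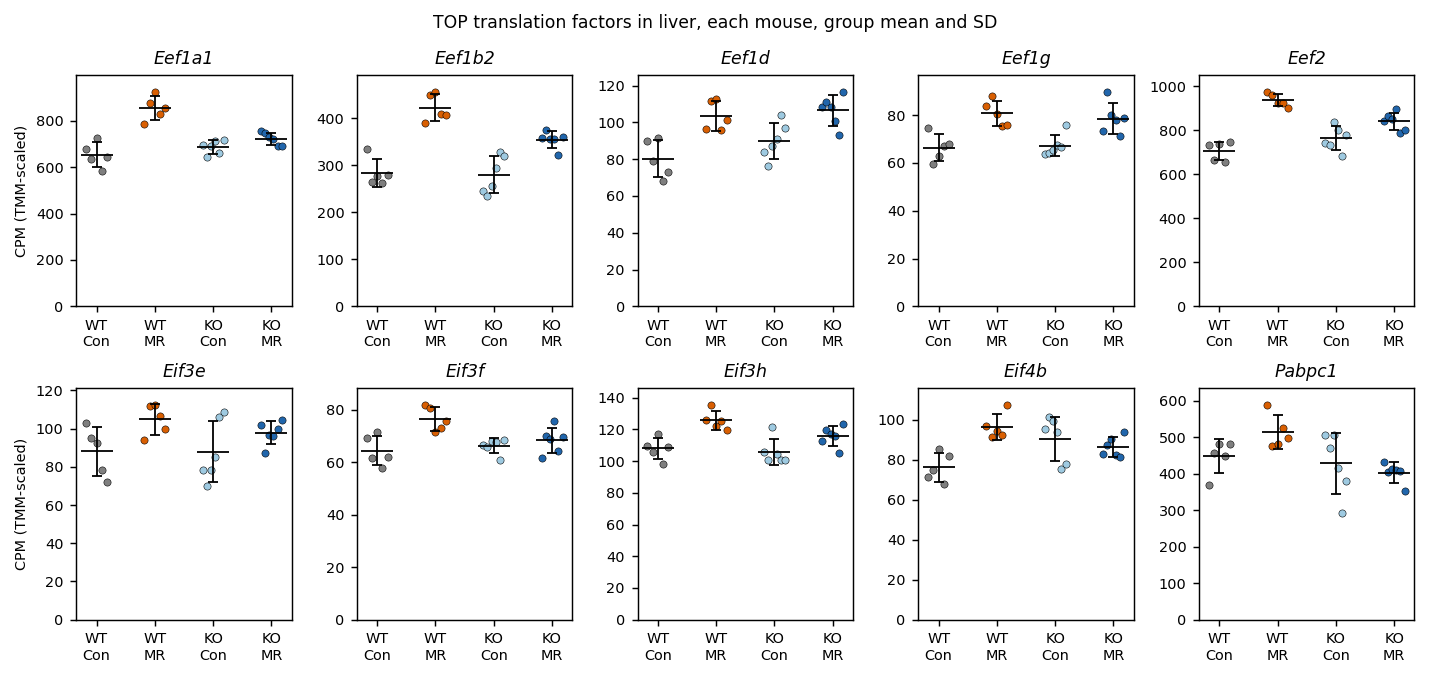
TMM-scaled CPM (y axis, from 0) of each of the 10 TOP translation factors in each of 22 mice, by group (x axis), with the group mean as a bar and the SD as whiskers. In 8 of the 10 panels every WT MR mouse lies above every WT Con mouse, whereas Eif3e and Pabpc1 overlap, and in all 10 panels the NRF2 KO MR mice overlap the NRF2 KO Con mice.

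The first comparison asked what MR did to these mRNAs in livers with Nfe2l2. In WT mice 8 of the 10 members rose on MR and 0 fell at an adjusted p under 0.05 (edgeR quasi-likelihood test, Benjamini-Hochberg over all 13336 genes), where 13.8% of all genes tested were called and 6.91% were called higher (6.91% lower). All 10 log2 fold changes were above 0, against 49.0% of all genes, and their median was 0.31 against -0.01 over all genes tested. Those 8 did not overlap between the diets, as held for 5.32% of all genes. The rises were modest, from 1.16-fold in Eif3h to 1.49-fold in Eef1b2. The members' summed level was 2574 ± 135 CPM in WT Con and 3316 ± 65.3 CPM in WT MR (SD, n = 5 each), with the highest WT Con mouse at 2742 and the lowest WT MR mouse at 3242.

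Of the elongation factors, Eef1b2 had the largest estimate. Its CPM in the 5 WT Con mice were 335, 264, 277, 262 and 278, and in the 5 WT MR mice 389, 449.7, 456, 409 and 407. Every MR mouse was above every Con mouse, although WT_CON_7602 stood apart from the other 4 Con mice (log2 fold change 0.58, SE 0.094, adjusted p = 0.00025). Eef2 was 730.2, 666, 735, 657 and 744 CPM on Con and 974, 957, 924, 924 and 902 CPM on MR. The lowest MR mouse was above the highest Con mouse, and Eef2 rose 1.33-fold (log2 fold change 0.41, SE 0.071, adjusted p = 0.00058). Eef1a1 was 679.7, 634, 727, 582 and 643 CPM on Con and 785, 878, 925, 830.4 and 855 CPM on MR. The groups again did not overlap, and the rise was 1.31-fold (log2 fold change 0.39, SE 0.072, adjusted p = 0.00090). Counted together with its 3 listed copies, a choice made after the data were seen, Eef1a1 rose by much the same (log2 fold change 0.40). The remaining subunits of the exchange complex, Eef1d and Eef1g, rose by 0.37 (SE 0.092, adjusted p = 0.0094) and 0.28 (SE 0.076, adjusted p = 0.014) on the log2 scale, and neither overlapped between the diets.

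Of the initiation factors, Eif4b had the largest estimate. It was 71.3, 75.1, 85.2, 67.7 and 82.1 CPM in the WT Con mice and 97.1, 91.2, 94.2, 92.2 and 107 CPM in the WT MR mice, without overlap (log2 fold change 0.34, SE 0.086, adjusted p = 0.010). The 3 subunits of eIF3 had similar log2 fold changes, 0.25 in Eif3e, 0.25 in Eif3f and 0.22 in Eif3h, but differed in their spread. Eif3f (SE 0.070, adjusted p = 0.019) and Eif3h (SE 0.069, adjusted p = 0.034) passed the test, and Eif3e did not (SE 0.11, adjusted p = 0.13). Eif3e ran from 72.1 to 103 CPM on Con and from 93.8 to 112 CPM on MR, so that the highest Con mice lay within the MR range. Pabpc1 was 369, 458, 482, 449.7 and 481 CPM in the WT Con mice and 588, 477, 481, 526 and 498 CPM in the WT MR mice. The groups overlapped between 477 and 482 CPM, and the difference was not called (log2 fold change 0.20, SE 0.12, adjusted p = 0.27).

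The count of 8 fell to 6 in the fit of the WT mice alone, where Eif3f (adjusted p = 0.062) and Eif3h (adjusted p = 0.078) were no longer called, and to 6 without the library labelled WT_CON_7607 or without WT_MR_7609. Among the fits that left out a mouse, Eif3f lost its call in those alone (adjusted p = 0.053 and 0.052), and Eif3h also without WT_CON_7603, WT_MR_7611 or WT_MR_7615 (adjusted p up to 0.083), while the other 6 members were called in every fit that left out a mouse.

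In NRF2 KO mice the estimated response to MR was smaller than in WT mice for each of the 10 members. Of the 10, 2 rose and 0 fell, where 12.6% of all genes tested were called and 6.23% were called higher (6.34% lower), so that the count of 2 is not far above the background. Of the 10, 8 had a log2 fold change above 0 (49.2% of all genes), the median was 0.13 (0.00 over all genes tested), and all 10 overlapped between the diets, where 2.62% of all genes were higher and 2.83% lower without overlap. The summed level was 2666 ± 123 CPM in NRF2 KO Con and 2872 ± 94.5 CPM in NRF2 KO MR (SD, n = 6 each), and the ranges, 2478 to 2811 and 2720 to 2952 CPM, overlapped.

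The genes that rose were both subunits of the exchange complex. Eef1b2 had a lowest, median and highest CPM of 234, 275 and 328 in NRF2 KO Con mice and of 321, 357 and 374 in NRF2 KO MR mice. All but the lowest of the MR mice were above every Con mouse (log2 fold change 0.34, SE 0.085, adjusted p = 0.010). Eef1g went from 63.9, 66.0 and 76.0 CPM on Con to 71.3, 78.3 and 89.8 CPM on MR, with the highest Con mouse within the MR range (log2 fold change 0.22, SE 0.069, adjusted p = 0.033). The third subunit, Eef1d, was just outside the threshold (log2 fold change 0.24, SE 0.084, adjusted p = 0.055), with 76.4, 89.0 and 104 CPM on Con and 93.2, 108 and 117 CPM on MR. Eef2 and Eef1a1, which had risen in WT mice, had log2 fold changes of 0.14 (SE 0.065, adjusted p = 0.17) and 0.07 (SE 0.066, adjusted p = 0.53). Eef2 was 683, 761 and 838 CPM on Con and 788, 846 and 894 CPM on MR. Eef1a1 was 644, 693 and 718 CPM in NRF2 KO Con mice and 689, 725 and 754 CPM in NRF2 KO MR mice, and the MR range began below the Con maximum. Its 95% interval ran from -0.06 to 0.21 on the log2 scale, and that of the WT estimate of 0.39 from 0.24 to 0.54. The difference between the genotypes was not called in the edgeR interaction (adjusted p = 0.37).

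None of the initiation factors or Pabpc1 was called in NRF2 KO mice. Eif3e, Eif3h and Eif3f had log2 fold changes of 0.16 (SE 0.10, adjusted p = 0.33), 0.13 (SE 0.063, adjusted p = 0.18) and 0.04 (SE 0.064, adjusted p = 0.71). Eif4b and Pabpc1 were the only members with an estimate below 0, -0.07 (SE 0.078, adjusted p = 0.62) and -0.09 (SE 0.11, adjusted p = 0.64), and both turned to the other side of 0 when counts were scaled by library size alone (0.09 and 0.07). Eif4b ran 75.4, 94.7 and 101 CPM (lowest, median, highest) on Con and 81.4, 85.0 and 93.9 CPM on MR, and the 6 MR values all lay inside the Con range. Pabpc1 ran 293, 443 and 507 CPM on Con and 351, 408 and 433 CPM on MR, and here too the MR mice lay within the wider Con range.

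The call of Eef1g rested on several mice. It was lost without any 1 of KO_CON_7617, KO_CON_7618, KO_CON_7620, KO_CON_7621, KO_MR_7627, KO_MR_7628 and KO_MR_7629 (adjusted p up to 0.090), which leaves 1 member called. Eef1d in turn was called without any 1 of WT_CON_7602, WT_CON_7605, WT_CON_7607, WT_CON_7608, KO_CON_7622, KO_CON_7623 and KO_MR_7631 (adjusted p down to 0.021), with DESeq2 (adjusted p = 0.033) and with all 24 mice under quality weights (adjusted p = 0.0060). Scaling by library size alone, which raised the median of all genes to 0.15 in NRF2 KO and 0.09 in WT mice, called 8 members higher in NRF2 KO mice and 9 in WT mice, and moved the calls over all genes from 831 higher and 846 lower to 2397 higher and 388 lower in NRF2 KO mice. Relative to the median of all genes, the members' median was 0.14 in NRF2 KO and 0.32 in WT mice under either scaling. A change of scaling shifts all genes about alike, so this difference could hardly move and does not test the calls.

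**Figure D2:**
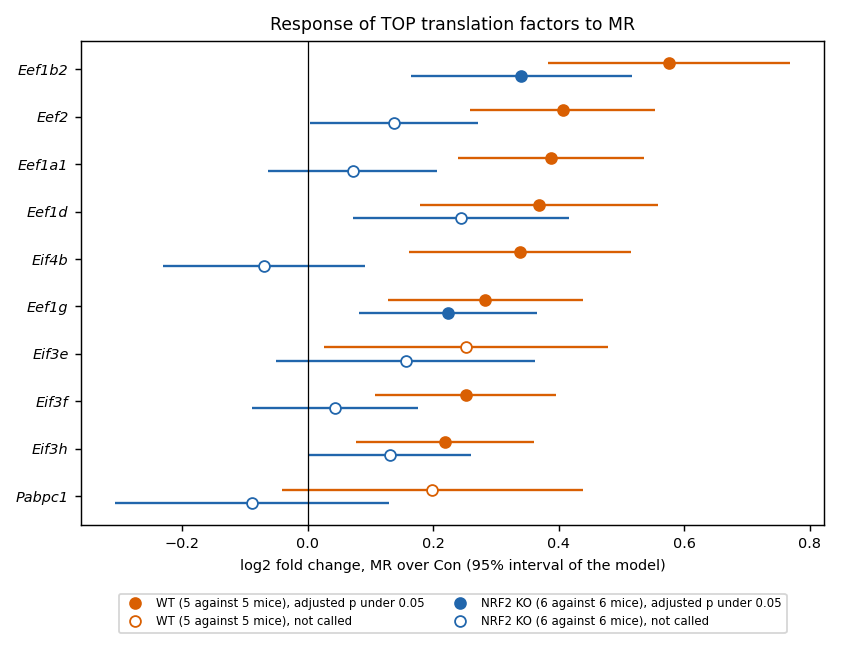
Log2 fold change of MR over Con (x axis) for each TOP translation factor (y axis, ordered by the WT value), with the 95% interval of the edgeR model, in WT and NRF2 KO mice. Filled points have an adjusted p under 0.05, 8 in WT and 2 in NRF2 KO mice, and each WT point lies to the right of the NRF2 KO point of the same gene.

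Whether the response to MR differed between the genotypes was tested by the interaction of genotype and diet. No member was called, where 0.0450% of all genes tested (6 of 13336) were called. All 10 estimates were below 0 (50.6% of all genes were above 0), with a median of -0.22, and 4 had an unadjusted p under 0.05. The largest was that of Eif4b (-0.41, SE 0.12, adjusted p = 0.30), followed by Eef1a1 (-0.32, SE 0.097, adjusted p = 0.37), Pabpc1 (-0.29, SE 0.16, adjusted p = 0.71) and Eef2 (-0.27, SE 0.097, adjusted p = 0.48). DESeq2 called 1 member, Eef1a1 (log2 difference -0.32, adjusted p = 0.045). The smallest was that of Eef1g (-0.06, SE 0.10, adjusted p = 0.94), which turned to 0.01 under library size scaling. The 95% interval of the difference was -0.65 to -0.17 for Eif4b and -0.52 to -0.12 for Eef1a1, before any adjustment for the number of genes. The count by edgeR was also 0 without the library labelled WT_CON_7607.

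The genotypes were next compared on each diet, which uses the same mice again. On Con, 0 members were called in NRF2 KO compared to WT mice (2.07% of all genes tested) by edgeR and by DESeq2, and the median log2 fold change was 0.03. The members' estimates ran from -0.06 in Pabpc1 to 0.25 in Eif4b. Eif4b was the single member with an unadjusted p under 0.05 (0.0059, edgeR, adjusted p = 0.13), at 76.3 ± 7.30 CPM in WT Con (SD, n = 5) and 90.6 ± 11.1 CPM in NRF2 KO Con mice (n = 6). Its ranges, 67.7 to 85.2 CPM and 75.4 to 101 CPM, overlapped. The count of 0 was the same without the library labelled WT_CON_7607.

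On MR, 0 members were called (1.93% of all genes tested, 1.38% lower), but 9 of the 10 estimates were below 0 (51.1% of all genes were above 0), the median was -0.16, and 5 had an unadjusted p under 0.05. Eef1a1, Eef1b2, Eef2 and Pabpc1, the 4 most abundant members, were lower in every NRF2 KO MR mouse than in every WT MR mouse, as were 2.91% of all genes. Pabpc1 had the largest estimate (-0.35, SE 0.11, adjusted p = 0.10), with 588, 477, 481, 526 and 498 CPM in the WT MR mice and 351, 408 and 433 CPM (lowest, median, highest) in the NRF2 KO MR mice. Eef1b2 was 389, 449.7, 456, 409 and 407 CPM against 321, 357 and 374 CPM (-0.25, SE 0.089, adjusted p = 0.15). Eef1a1 was 785, 878, 925, 830.4 and 855 CPM against 689, 725 and 754 CPM (-0.24, SE 0.069, adjusted p = 0.063), and Eef2 had a log2 difference of -0.16 (SE 0.068, adjusted p = 0.29). Eef1d was the member above 0 (0.04, SE 0.088, adjusted p = 0.91). The count depended on the fit: 3 members (Eef1a1, Eef1b2 and Pabpc1) were called lower in the fit of the MR groups alone and in that of all 24 mice with quality weights, and 1, Eef1a1, by DESeq2 (adjusted p = 0.0018) and when it was counted with its copies (adjusted p = 0.048). Eef1a1 was also called without the library labelled WT_CON_7607 or without WT_MR_7609 (adjusted p down to 0.039), and Pabpc1 without KO_CON_7622 (adjusted p = 0.034).

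The other genes of the translation machinery were counted in lists compiled from general knowledge. These lists, like the 10 members, were chosen with earlier results of these data known, so their counts are descriptive. Among 11 further subunits of eIF3, 5 rose and 0 fell on MR in WT mice (median log2 fold change 0.24), and 4 rose and 0 fell in NRF2 KO mice (median 0.10). Over all genes, for this and the next list, the shares called higher were 6.91% in WT and 6.23% in NRF2 KO mice. Eif3c, part of the core of the complex, was called in both (0.34 and 0.24), as was Eif3g (0.21 and 0.21). Eif3i, Eif3k and Eif3l were called in WT mice, at 0.26, 0.28 and 0.29, and Eif3a and Eif3j1 in NRF2 KO mice, at 0.32 and 0.26. None of the 11 was called in the edgeR interaction (2 at an unadjusted p under 0.05), so that a difference between the genotypes was not shown for them. Among 10 genes of the cap-binding complex eIF4F, its partners and the 4E-binding proteins, 4 rose in WT and 2 in NRF2 KO mice (medians 0.31 and 0.13), and 0 fell. Eif4ebp1, whose protein blocks the cap-binding factor eIF4E when mTORC1 is inactive, rose from 49.8 ± 5.16 CPM to 88.9 ± 11.4 CPM in WT mice (SD, n = 5 each; log2 fold change 0.83, SE 0.11, adjusted p = 2.8e-05) and from 55.0 ± 6.64 CPM to 80.3 ± 10.7 CPM in NRF2 KO mice (n = 6 each; 0.55, SE 0.098, adjusted p = 0.00075). Eif4g2, a relative of the scaffold eIF4G, rose by 0.45 and 0.25, and the helicases Eif4a1 and Eif4a2, which eIF4B stimulates, by 0.40 and 0.54 in WT mice.

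The counts for the other steps stand beside 13.8% and 12.6% of all genes called in either direction. Of 8 genes of eIF2 and its exchange factor eIF2B, Eif2s2, a subunit of eIF2, rose in both genotypes (0.40 and 0.45) and the others were not called (medians 0.07 and 0.01). Of 7 genes for start-site selection and subunit joining, 0 were called in either genotype by edgeR (medians 0.08 and 0.06), with 2 in WT and 1 in NRF2 KO mice at an unadjusted p under 0.05. Of 7 further elongation and release factors, Eef1e1, which encodes a part of the aminoacyl-tRNA synthetase complex (0.59), and the release factor Etf1 (0.24) rose in WT mice and Etf1 (0.20) in NRF2 KO mice. Of 5 other genes of poly(A)-binding proteins and their partners, Pabpc4, a relative of Pabpc1, rose in WT mice (0.42, SE 0.11, adjusted p = 0.013), and 0 were called in NRF2 KO mice by edgeR (1 at an unadjusted p under 0.05).

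Genes with TOP mRNAs that do not encode translation factors were also counted. Of 79 cytosolic ribosomal protein genes, 70 rose and 0 fell in WT mice and 42 rose and 0 fell in NRF2 KO mice, with median log2 fold changes of 0.52 and 0.29, where 6.91% and 6.23% of all genes were called higher. The 42 depended on the fit: it was 25 without KO_CON_7618, 27 without KO_CON_7620, 28 without KO_CON_7617 and between 31 and 58 without any other single mouse, 63 with all 24 mice under quality weights and 70 under library size alone, while the 70 in WT mice stayed between 67 and 74 in all the fits. These medians were above those of the translation factors, 0.31 and 0.13. Rpl12, with the largest rise, went from 164 ± 26.2 CPM to 298 ± 24.7 CPM in WT mice (0.86, SE 0.13, adjusted p = 0.00010) and from 154 ± 37.1 CPM to 219.5 ± 10.7 CPM in NRF2 KO mice (0.51, SE 0.12, adjusted p = 0.0051). For the genotypes on MR, 4 of the 79 were lower in NRF2 KO mice and 0 higher (1.38% of all genes were called lower), among them Rpl6 (-0.45, SE 0.099, adjusted p = 0.011). The 4 became 3 to 7 with single mice left out, 2 under library size alone, 12 with only the groups compared in the fit, 17 with quality weights and 18 by DESeq2. In the interaction 0 were called by edgeR (21 at an unadjusted p under 0.05), with all 79 estimates below 0 and a median of -0.23. Of 11 other TOP mRNAs, Npm1, Rack1, Tpt1, Impdh2 and Ipo7 rose and Vim fell in WT mice, and Npm1 rose in NRF2 KO mice. Rack1, a protein of the small ribosomal subunit, rose by 0.48 (SE 0.082, adjusted p = 0.00040) in WT mice, and Vim, an intermediate filament gene of mesenchymal cells, fell (-0.51, SE 0.15, adjusted p = 0.025). Of 15 known regulators of the class, Deptor, an inhibitor of mTOR, rose in WT mice (0.42, SE 0.096, adjusted p = 0.0052) and Rheb, an activator of mTORC1, in NRF2 KO mice (0.27, SE 0.079, adjusted p = 0.024). Larp1 had log2 fold changes of 0.10 (SE 0.10, adjusted p = 0.58) and 0.20 (SE 0.095, adjusted p = 0.16) and Mtor of 0.19 (SE 0.13, adjusted p = 0.38) and 0.19 (SE 0.12, adjusted p = 0.35), in WT and NRF2 KO mice. Eef2k, the kinase that inactivates eEF2, was not called for MR in either genotype and was higher in NRF2 KO than in WT mice on Con (9.07 ± 1.01 CPM and 6.54 ± 0.609 CPM, log2 fold change 0.47, SE 0.11, adjusted p = 0.020). Eif2s3x, a subunit of eIF2, was lower in NRF2 KO than in WT mice on MR (-0.48, SE 0.10, adjusted p = 0.0086).

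**Figure D3:**
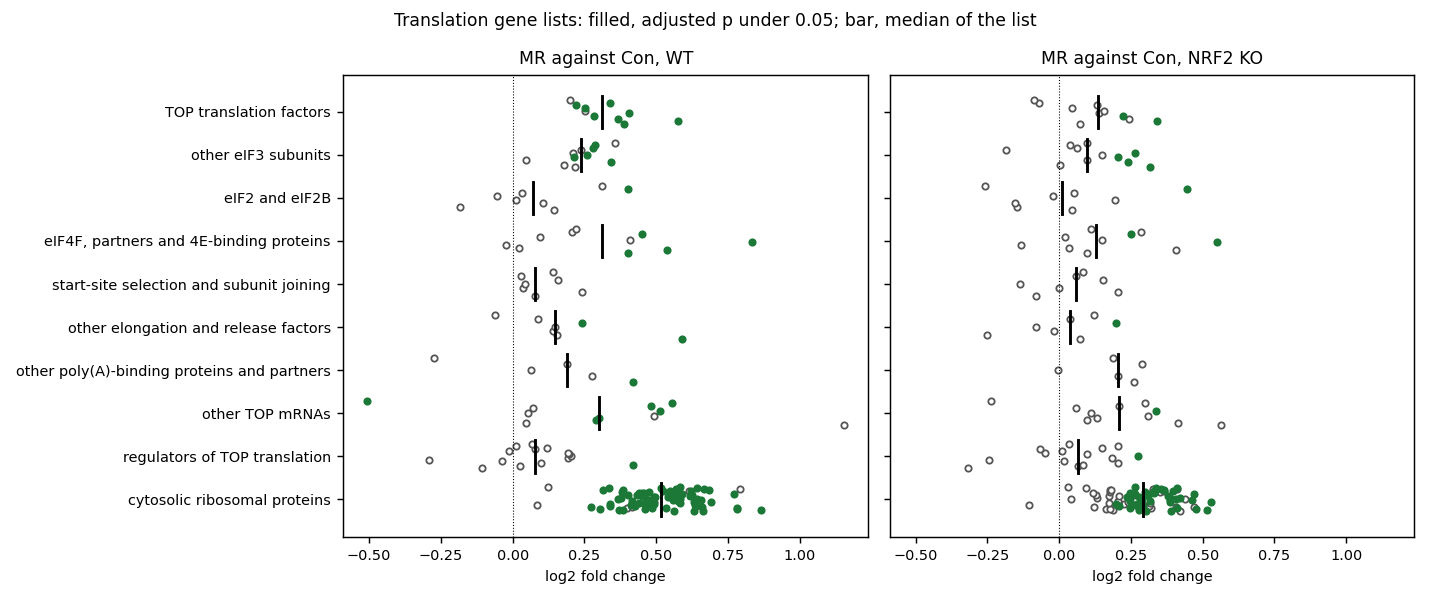
Log2 fold change of MR over Con (x axis) of each tested gene in 10 lists of the translation machinery (y axis), in WT mice (left) and NRF2 KO mice (right). Filled points have an adjusted p under 0.05 and the black bar is the median of the list, which for the TOP translation factors is 0.31 and 0.13 and for the cytosolic ribosomal proteins 0.52 and 0.29.

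Some other features of the libraries are given by diet and genotype. The 10 most abundant genes of each library took a median of 30.2% of counts on Con and 26.1% on MR in WT mice, and 29.98% and 26.4% in NRF2 KO mice. The members took a median of 0.242% and 0.341% of all counts in WT mice and 0.252% and 0.305% in NRF2 KO mice. Summed levels of 8 hepatocyte markers ran from 84286 to 114986 CPM on Con and 73856 to 91024 CPM on MR in WT mice, and from 109155 to 128752 CPM on Con and 91918 to 114193 CPM on MR in NRF2 KO mice. The 11 markers of Kupffer cells and macrophages summed to 508 to 669, 399 to 449.95, 435 to 655 and 377 to 502 CPM in the same order, and 5 bile duct markers to 49.0 to 72.6, 20.9 to 28.3, 31.7 to 53.1 and 20.6 to 29.0 CPM. The 8 markers of stellate cells and fibroblasts summed to 407 to 683, 355 to 442, 467 to 555 and 385 to 505 CPM, again in that order. The 7 endothelial markers (256 to 307, 277 to 302, 262 to 305 and 292 to 329.7 CPM) and the red blood cell markers (2089 to 2584, 1298 to 3183, 1537 to 3711 and 1079.6 to 3056 CPM) overlapped between the diets in both genotypes. So did the sums of hepatocyte markers and of stellate cell and fibroblast markers. The Kupffer cell and macrophage sums overlapped between the diets in NRF2 KO mice only, and the bile duct sums in neither genotype. Between the genotypes on MR, the hepatocyte sums of NRF2 KO mice lay above those of WT mice without overlap. The other sums given here overlapped between the genotypes on that diet. What part these shifts had in the members' differences between diets or genotypes was not tested. In whole liver, fewer cells of a type and less RNA per cell cannot be told apart.

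Mice of the same group also differed in a pattern that several members shared. After each gene was centred on its group means, the 45 pairs of members had Pearson r of log2 CPM from -0.81 to 0.81 over the 22 mice, with a median of 0.28 and 34 above 0. The highest was between Eef1b2 and Eef1d, and Eef1b2 and Eif3e followed at 0.75. The lowest was between Eef1b2 and Pabpc1. In NRF2 KO Con mice, where this was widest, the 3 mice with the highest Pabpc1 (470.3 to 507 CPM) had the lowest Eef1b2 (234 to 257 CPM), and KO_CON_7622 had the lowest Pabpc1 (293 CPM) and Eif4b (75.4 CPM) and the highest Eef1b2 (328 CPM) and Eef1d (104 CPM). In WT Con mice, WT_CON_7602 had the lowest Pabpc1 (369 CPM) and the highest Eef1b2 (335 CPM). All members come from the same libraries and share their scaling, so these correlations describe the 22 libraries. By the same measure, the 5 genes outside the list that were most like the members' mean log2 CPM, of 11987 ranked, were Rnf187 (r = 0.82), Pink1 (0.80), Magix (0.79), Ak4 (0.78) and Mycbp (0.76).

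**Figure D4:**
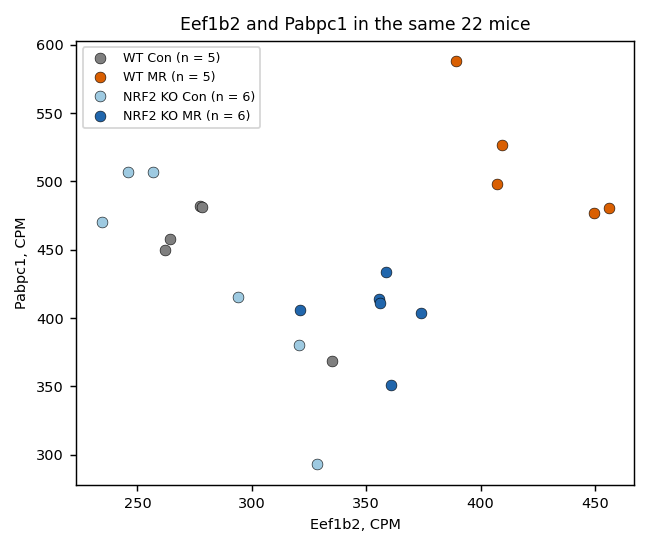
Pabpc1 against Eef1b2, both in TMM-scaled CPM, with a point for each of 22 mice coloured by group. Among the 6 NRF2 KO Con mice the 3 with the highest Pabpc1 (470.3 to 507 CPM) have the lowest Eef1b2 (234 to 257 CPM), and the 5 WT MR mice lie to the right of every other mouse.

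The mice set aside by the study were read in a fit of all mice. Under a scaling over all 24 mice, WT_CON_7604 had 345 CPM of Eef1b2 and 554 CPM of Pabpc1, both above the other 5 WT Con mice. WT_MR_7612 had 501 CPM of Eef1b2, above the other 5 WT MR mice, and 774 CPM of Eef1a1 and 83.1 CPM of Eif4b, both below them. With all 24 mice the members called were again 8 for MR in WT mice and 2 in NRF2 KO mice, and the summed levels were 2616 CPM in WT Con and 3339 CPM in WT MR.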

How the data were processed

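Liver RNA of 24 mice was sequenced as QuantSeq 3′ libraries, 1 per mouse. The authors mapped and counted reads with the kit maker's pipeline (Lexogen Quantseq FWD); the build is GRCm38 in the submitters' processing notes, which also name DESeq2 1.18.1 and R 3.4.3, and the aligner and annotation are not given in the sources used here. Raw counts per gene were deposited by the authors and used for all main values. The signal values, also deposited by the authors, are those counts divided by 1 size factor per mouse (largest relative deviation 9.8e-15) and served an alternative. Symbols, positions and 3′ ends came from GENCODE M21.

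The 10 members and all lists were chosen with earlier results of these data known. All members were named; genes of other lists were named when called in any comparison (ribosomal proteins at most 3, by size), and Larp1, Mtor, Eef2k and Eif4ebp1 in any case. Counts were fitted in R 4.3.3 with edgeR 4.0.16 (filter by expression, TMM, robust quasi-likelihood) as 4 group means over 22 mice, without WT_CON_7604 and WT_MR_7612. The filter left out 1824 of 15160 genes. The threshold was 0.05 on p adjusted by Benjamini-Hochberg over 13336 genes. SE and 95% intervals are those of the model, SD that between mice, each mouse being a separate animal. No batch is named in the labels. Log2 CPM used a prior count of 2. Depth was 6197291 to 22068338 counts per mouse, and no technical replicates exist, so precision is the spread between mice. All 60 pairs of libraries of the same group differed by more than counting noise (chi-square per degree of freedom at least 8.36). The model was tested on simulated data for MR against Con in WT mice, where it recovered 115 of 200 changed genes with 5 false calls. A gene that was not called may thus still have changed.

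Alternatives were DESeq2 size factors, library size alone, no filter, at least 10 counts in every mouse, DESeq2 1.42.0, limma 3.58.1 on log2(deposited normalized value + 1), fits of the compared groups alone, all 24 mice unweighted or with quality weights, and each of 22 mice left out. After the data were seen, scaling factors from genes outside the TOP and ribosomal protein lists and Eef1a1 counted with its copies were added. Figures used matplotlib 3.10.9.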

Additional observations from a re-analysis of the deposited data

Results flagged for a closer look

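Among 44 sets of values (the 10 members and their sum in each of 4 groups of 5 or 6 mice), 7 held a mouse whose gap to the nearest other mouse took an unusually large share of the group's range by Dixon's test. Chance alone is expected to mark about 1 set in 20. In WT Con, WT_CON_7602 had the highest Eef1b2 (335 CPM, the others 262 to 278) and the lowest Pabpc1 (369 CPM, the others 449.7 to 482). In NRF2 KO Con, KO_CON_7623 had the highest Eef1g (76.0 CPM, the others 63.9 to 67.6), KO_CON_7622 the lowest Eif3f (60.9 CPM, the others 66.0 to 68.6) and KO_CON_7620 the highest Eif3h (122 CPM, the others 101 to 106). In NRF2 KO MR, KO_MR_7631 had the lowest Eef1b2 (321 CPM, the others 356 to 374) and KO_MR_7632 the lowest Pabpc1 (351 CPM, the others 404 to 433). Without any 1 of these mice Eef1b2 was still called for MR in both genotypes. The sums of the 10 members held no such mouse.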

How the results depend on the processing

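No paired analysis was possible because the mouse numbers of the 4 groups do not repeat. For MR in WT mice the members called stayed between 6 and 9 of 10 under every alternative, and were 6 to 8 when each mouse was left out. For MR in NRF2 KO mice the 2 members called became 8 under library size alone, 3 under 5 other alternatives and 1 to 3 when each mouse was left out. For NRF2 KO against WT on MR the 0 called became 1 with DESeq2 and with Eef1a1 counted with its copies, 3 with only the groups compared and 3 with quality weights, and 0 to 1 when each mouse was left out. For the interaction the 0 called became 1 with DESeq2. For NRF2 KO against WT on Con 0 were called under every alternative. Library size alone moved the summed level to 3427 CPM in WT MR, 2529 in NRF2 KO Con and 3037 in NRF2 KO MR, and the calls over all genes to 1434 higher and 526 lower (from 922 and 921) for MR in WT mice, 63 and 165 (from 107 and 169) for NRF2 KO against WT on Con and 2 and 5 (from 3 and 3) for the interaction. Direction turned, in uncalled members, for Eif4b (0.087) and Pabpc1 (0.075) on MR in NRF2 KO mice and Eef1g in the interaction (0.0068) under library size alone, and for Eef1g in NRF2 KO against WT on Con (0.018) under library size alone (-0.015), all 24 mice (-0.0050) and quality weights (-0.0073). In that comparison the values with each mouse left out spanned 0, from -0.068 to 0.041 in Eef1b2, -0.026 to 0.055 in Eef1g, -0.076 to 0.053 in Eif3e and -0.133 to 0.026 in Pabpc1. The causes were not tested. Of 4 members with a run near the start, 3 had it within 10 bases and 4 had at least 7 bases. The spread between 5 or 6 mice limits all values.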
